A study of Drosophila melanogaster with 4 samples.

Results

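Broad autosomal domains of H3K9ac in adult fly heads were stretches of 10 kb or more that the authors' list for the whole series gave as 1 enriched cluster each. They were selected on measured values, since the rule took every cluster on the arms 2L, 2R, 3L and 3R by its length in that list and left out the X, chromosome 4, the heterochromatin scaffolds and the unplaced sequence. The rule found 468 domains among 9740 autosomal clusters and 12182 clusters in all. The profile came from chromatin immunoprecipitation and sequencing (ChIP-seq) of head nuclei of wild-type Oregon-R Drosophila melanogaster, given as mixed adults, with 2 ChIP libraries and 2 input libraries that served as their backgrounds. The flies came from population cages, their heads were collected by sieving and the chromatin was crosslinked with formaldehyde; neither sex nor age is stated, and all samples share the 1 strain. All coordinates refer to release 5 of FlyBase, as the headers of the lists state. The tissue label could not be checked against marker genes, since the lists carry no gene names.

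Acetylation of lysine 9 removes the positive charge of that residue in the tail of histone H3. In Drosophila it is laid down by complexes that contain the acetyltransferase Gcn5, removed by histone deacetylases and read by bromodomain proteins. The mark is known for nucleosomes at promoters and at the 5′ parts of transcribed genes. A domain of 10 kb or more covers many nucleosomes in a row. In a mixture of neurons, photoreceptors, glia, fat body and muscle, strong acetylation in few nuclei and weak acetylation in many cannot be told apart.

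The replicate lists were less broad than the whole-series list. Replicate 1 held 221 clusters of 10 kb or more among 7377 autosomal clusters, and replicate 2 held 248 among 8199. The whole-series list was also the larger one, with 468 among 9740, so the counts alone overstate the difference in breadth. All of them overlapped a domain of the whole-series list, and 221 and 247 of them lay inside 1 or more domains to at least 90% of their length. The reverse did not hold. A replicate cluster of 10 kb or more reached into 166 domains (35.5%) in both replicates, into 43 in replicate 1 alone and into 70 in replicate 2 alone. In the other 189 domains (40.4%), neither replicate had a cluster that long. These 189 domains had a median length of 11751 bp, and the longest measured 30721 bp. The whole-series list and the replicate lists rest on the same libraries, by a way of joining not given in the sources used here. No comparison below is a test, and the spread between the replicates may be technical.

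Domains ranged from just over the threshold to several times its length. Their median length was 13764 bp, with quartiles of 11356 and 18525 bp, and 161 domains (34.4%) were shorter than 12 kb. The number at or above 20 kb was 91, and at or above 30 kb it was 26. The shortest domain, 2L 309506 to 319518, measured 10013 bp and scored 0.965, and 2R 9159418 to 9169438 followed with 10021 bp and a score of 0.472. On the other side of the threshold, 2L 14049578 to 14059566 measured 9989 bp and scored 0.580, and 3R 16608142 to 16618114 measured 9973 bp and scored 0.707. No break in length set the domains apart from these shorter clusters. The domains were 4.80% of the autosomal clusters and held 7.56 Mb, which was 21.5% of the clustered bases and 7.82% of the 4 arms. That their share of bases exceeds their share of clusters follows from the choice by length.

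The 10 longest domains differed in how whole they were in the replicates. The longest, 3L 22128412 to 22200232, spanned 71.8 kb with a score of 0.933, and was covered to 96.8% by 3 clusters of replicate 1 and to 98.6% by 3 of replicate 2. Its longest piece was 36.4 kb in replicate 1 and 44.1 kb in replicate 2. The breaks did not fall at the same places throughout. The first gap lay at 22145202 to 22146713 in replicate 1 and at 22144304 to 22144833 in replicate 2, so these gaps were neighbours without a base in common. The second gaps, of 216 and 402 bp, had no base in common either. This domain ended 55 bp before the next one, 3L 22200288 to 22215442, and a single replicate 2 cluster of 26.1 kb ran across that break. It was the only replicate cluster that joined 2 domains.

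The second longest domain, 2R 1690618 to 1740208, measured 49.6 kb and was nearly unbroken. Replicate 2 gave it as 1 cluster of 49.3 kb, and replicate 1 as a cluster of 46.9 kb and a piece of 1.62 kb, with 207 bp between them. It was also the domain farthest from any other, at 661 kb, and the first one on 2R from the centromere-proximal end. Of the 10 longest, 3R 23225068 to 23264036 and 3L 21871864 to 21908820 were 1 cluster in each replicate. The second of these had a cover of 99.2% by the replicate 1 cluster and of 99.7% by the replicate 2 cluster. The lowest mean cover and the most pieces of the 10 were those of 2R 17780046 to 17816726, of 36.7 kb, with 5 pieces and 79.1% cover in replicate 1 and 4 pieces and 92.1% cover in replicate 2. The domain 3R 3424168 to 3465978 was also in pieces, 4 and 3 of them, and in both replicates the longest piece was the last, with 21.9 kb and 22.2 kb. Scores of the 10 longest lay between 0.716 and 1.14, and the highest of these ranked 833 among the autosomal clusters.

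**Figure D1:**
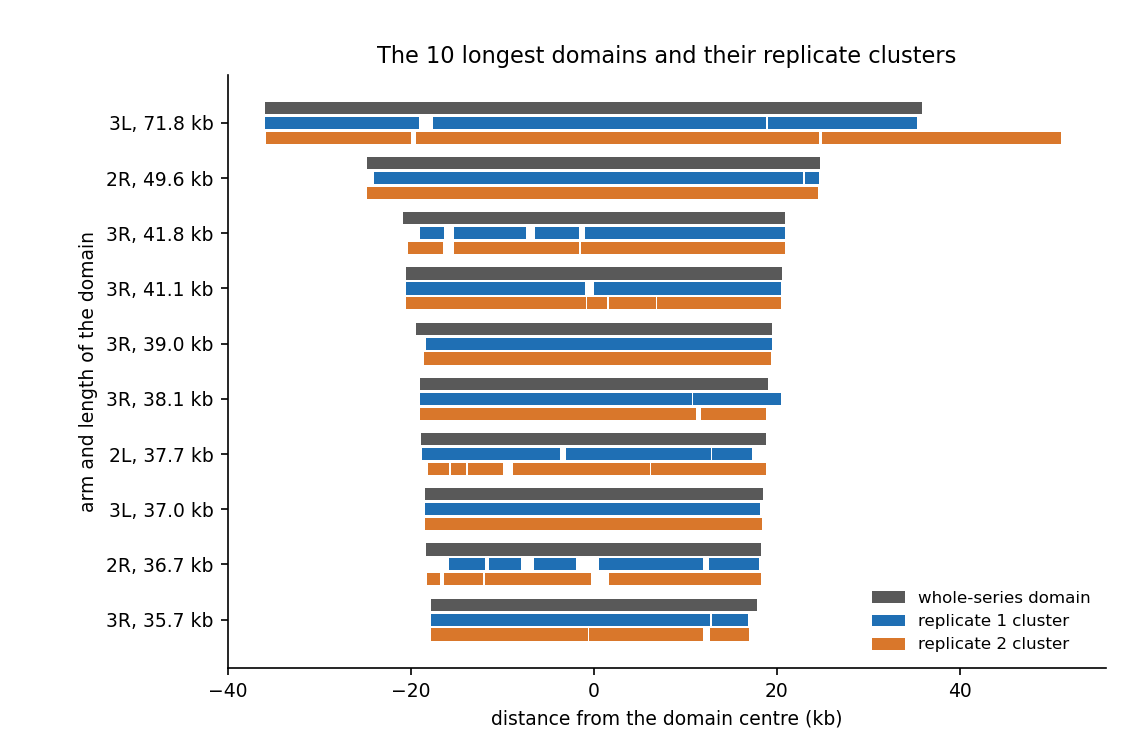
Extent of the 10 longest domains (grey) and of the clusters of replicate 1 (blue) and replicate 2 (orange) that overlap them, as distance in kb from the centre of each domain, with arm and length on the vertical axis. The 39.0 kb domain on 3R and the 37.0 kb domain on 3L are 1 cluster in each replicate, and the 36.7 kb domain on 2R is in 5 and 4 pieces.

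Cover by the replicates was high in most domains and lower in replicate 1. The share of a domain covered ranged from 25.6% to 100% in replicate 1, with a median of 90.3%, and from 56.9% to 100% in replicate 2, with a median of 93.2%. The mean of these medians was 91.8% ± 2.03 (SD, n = 2). Each of the 468 domains overlapped at least 1 cluster in each replicate. Cover of 50% or more in both replicates held for 460 domains, against 56.3% of all autosomal clusters, a figure that the many short clusters lower. Clusters of 5 to 10 kb had median covers of 87.9% and 92.1%, close to those of the domains. Both replicates together covered the same 84.3% of the domain bases. A further 3.72% was covered by replicate 1 alone, 7.62% by replicate 2 alone and 4.38% by neither. Of the 331 kb covered by neither, 211 kb lay at the outer edges of domains and 120 kb between pieces.

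Replicate 2 had more cover in 307 domains and replicate 1 in 161. The median difference was 1.83 percentage points. The replicates differed by more than 20 points in 38 domains, and replicate 2 was the higher one in 36 of these. The largest difference was at 3R 7181224 to 7191842, with 38.0% in replicate 1 and 95.2% in replicate 2. Next came 2R 9159418 to 9169438 with 35.4% and 90.8%, and then 2R 14954010 to 14967880 with 39.7% and 93.0%. The other two were 2L 9140808 to 9152638, with the lowest cover of any domain in replicate 1, 25.6% against 75.5%, and 3L 22224782 to 22235152, with 46.8% and 93.2%. These 5 domains were between 10.0 and 13.9 kb long and had scores from 0.472 to 0.580, below the lower quartile of the domains. Read depth, which could differ between the libraries, is unknown, and its part in the higher cover of replicate 2 was not tested. Replicate 2 also had more autosomal clusters, 8199 against 7377.

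**Figure D2:**
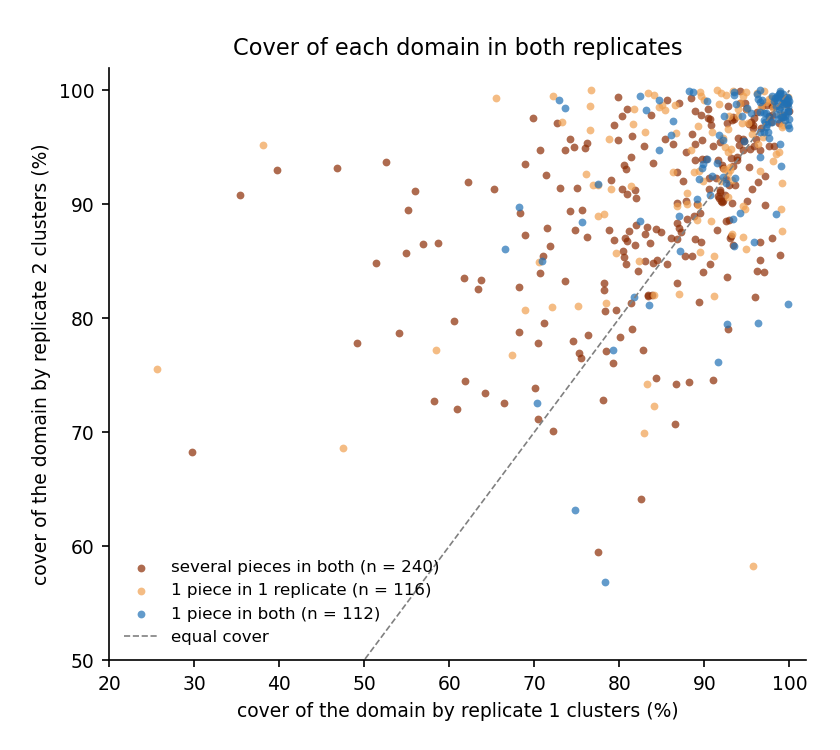
Share of each domain covered by replicate 1 clusters (horizontal axis, %) and by replicate 2 clusters (vertical axis, %), 1 point per domain, coloured by its number of pieces, with a dashed line at equal cover. Points with cover below 50% in replicate 1, 8 in all, lie between 68.2% and 95.2% in replicate 2, and most domains of 1 piece in both replicates lie above 90% on both axes.

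About 1 domain in 4 was 1 piece in both replicates. A single piece need not fill its domain. In replicate 1, 2L 9140808 to 9152638 was 1 piece with a cover of 25.6%. The number of domains that were 1 piece was 160 in replicate 1 and 180 in replicate 2, a mean share of 36.3% ± 3.02 (SD, n = 2). Both replicates had 1 piece in 112 domains (23.9%), against 49.4% of all autosomal clusters. This background mixes unlike classes. The share was 9.97% at 1 to 2 kb, where the median cover was 0 in both replicates, and 79.0% at 2 to 5 kb. From there it was lower in each longer class, with 58.0% at 5 to 10 kb, 28.5% at 10 to 15 kb, 21.5% at 15 to 20 kb, 12.3% at 20 to 30 kb and 11.5% of the 26 domains of 30 kb or more. Domains of 1 piece in both replicates had higher scores, with a median of 0.999 against 0.723 for the 240 domains in several pieces in both. They were also shorter, with medians of 12149 and 14636 bp.

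The most pieces, 6 in replicate 1 and 5 in replicate 2, were found in both 2R 17897004 to 17927724 and 3L 3723462 to 3753594, of 30.7 and 30.1 kb. In the first, no piece reached 10 kb, and it was the longest domain for which this held in both replicates. Its last piece scored 1.37 in replicate 1 and 1.34 in replicate 2, well above its other pieces, which scored 0.469 to 0.796 and 0.664 to 0.877. In 2R 13878268 to 13896080, of 17.8 kb, 5 pieces in each replicate were likewise led by the last, with scores of 1.107 and 1.104 against at most 0.629 elsewhere. In both replicates, then, the highest score in these domains belonged to the same end. The other two of the 5 domains with the most pieces were 3R 22349172 to 22380918 with 5 and 5 and 3R 25202652 to 25228326 with 4 and 6.

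Across the domains in several pieces, the longest piece was usually the one with the highest score. This was so in 231 of 308 such domains in replicate 1 and in 189 of 288 in replicate 2 (65.6%). The longest piece had a median score of 0.822 in replicate 1 and 0.838 in replicate 2. The median over the remaining pieces of a domain was 0.633 and 0.676. These remaining pieces were short, with median lengths of 2788 and 3226 bp. The main piece was picked by its length, and length and score went together among shorter clusters of the whole-series list too, so nothing particular to domains is read from these shares. The median spread between the highest- and lowest-scoring piece of a domain was 0.290 in replicate 1 and 0.260 in replicate 2.

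Gaps between pieces were short. Replicate 1 had 524 gaps inside domains with a median of 527.5 bp, and replicate 2 had 475 with a median of 435 bp. Gaps shorter than 500 bp made up 48.3% and 54.1% of them, and those of at least 1 kb 26.1% and 22.5%. Gaps summed to 391 kb in replicate 1 and 285 kb in replicate 2. Many gaps did not recur. Of the replicate 1 gaps, 214 (40.8%) shared at least 1 bp with a replicate 2 gap, and of the replicate 2 gaps 218 (45.9%) shared bases with a replicate 1 gap. The other replicate covered 296 of the replicate 1 gaps and 225 of the replicate 2 gaps in full.

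There were 219 shared stretches in 176 domains (37.6%), with at most 4 in a domain. Their median length was 299 bp, and 26 were 1 kb or longer. In relative position, 166 of the 219 (75.8%) were centred in the middle 50% of their domain. A gap needs a replicate piece on each side of it in the domain, which keeps gaps away from the ends. The share over all gaps is not set beside it, so nothing particular to shared gaps is read from this position. The longest shared gap, 3L 561091 to 563536 of 2446 bp, lay in the 17.4 kb domain 3L 552464 to 569858. The next were 2R 4217601 to 4219996 of 2396 bp, 3R 27736147 to 27738227 of 2081 bp, 3L 22355537 to 22357604 of 2068 bp and 2R 13185037 to 13187030 of 1994 bp. At these places the whole-series list ran on, while both replicate lists had no cluster.

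**Figure D3:**
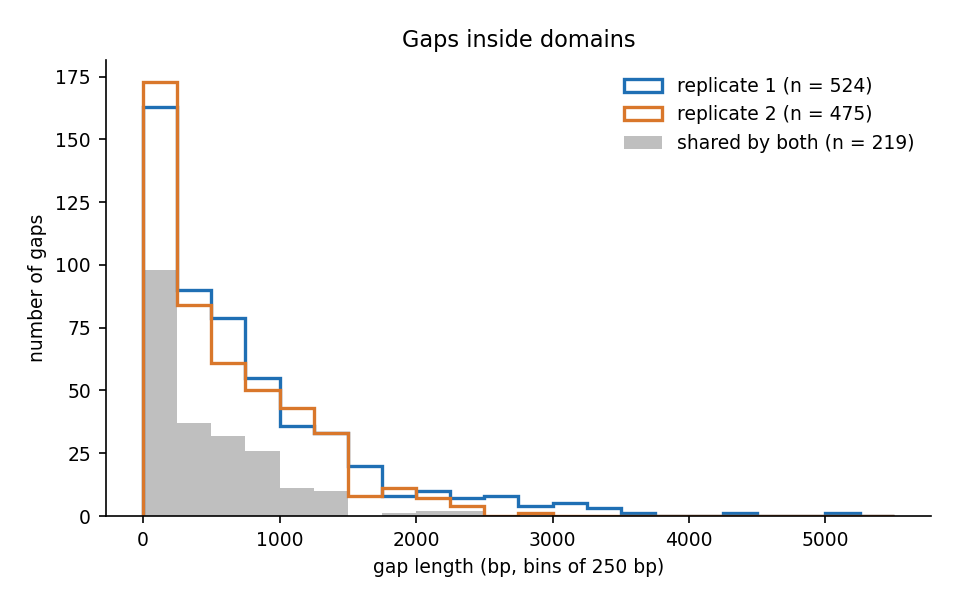
Number of gaps between replicate pieces inside domains by gap length (bp, bins of 250 bp) in replicate 1 (blue) and replicate 2 (orange), and of the stretches that are gaps in both (grey). The first bin is the fullest in all of these, and replicate 1 has more gaps of 2 kb or longer, 40 against 12.

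The outer edges of most domains were placed alike by both replicates. The outermost replicate base lay a median of 204.5 bp from the domain edge in replicate 1 and 110.5 bp in replicate 2, over 936 edges. The replicates' own outer edges were a median of 146 bp apart, and 528 (56.4%) were within 200 bp of each other. Clusters of 5 to 10 kb gave nearly the same values, 155 bp and 56.2%, which sets the domain values beside those of the next shorter class. More than 1 kb separated the edges of the replicates at 151 domain edges (16.1%).

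Scores of the domains were in the middle to upper range of the list. The score is the authors' value for a cluster, with a scale not given in the sources used here. It ranged from 0.447 to 1.91 over the domains, with a median of 0.808 and quartiles of 0.686 and 0.960. Clusters under 10 kb had a median of 0.445, with quartiles of 0.349 and 0.703, but reached 2.69. Only 1 domain scored below 0.461, the median of all autosomal clusters. At the upper end, 58 domains (12.4%) were in the highest decile, at or above 1.09, and 2 were among the 100 highest scores. Domains made up 5.95% of that decile and 4.80% of all autosomal clusters. These shares are close, and 2 domains are few, so neither an excess nor a lack at the top is read from them. Length and score come from the same enrichment, so this is a description of the lists.

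Among clusters under 10 kb, longer ones scored higher, with a Spearman's rho of 0.70 across 9272 clusters. Across the 468 domains the rho was 0.09. The median score went from 0.332 at 1 to 2 kb to 0.560 at 2 to 5 kb, 0.711 at 5 to 10 kb and 0.793 at 10 to 15 kb. Beyond that it moved little, with 0.800 at 15 to 20 kb, 0.826 at 20 to 30 kb and 0.880 at 30 kb or more. From 2 kb up, the spread was narrower in each longer class, with an interquartile range of 0.454 at 2 to 5 kb, 0.316 at 10 to 15 kb and 0.183 at 30 kb or more. The longest domains thus had scores close to each other, between 0.714 and 1.27 at 30 kb or more. Points in these comparisons share the libraries, and most clusters under 2 kb lie in a narrow band of low scores, with an interquartile range of 0.0976.

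**Figure D4:**
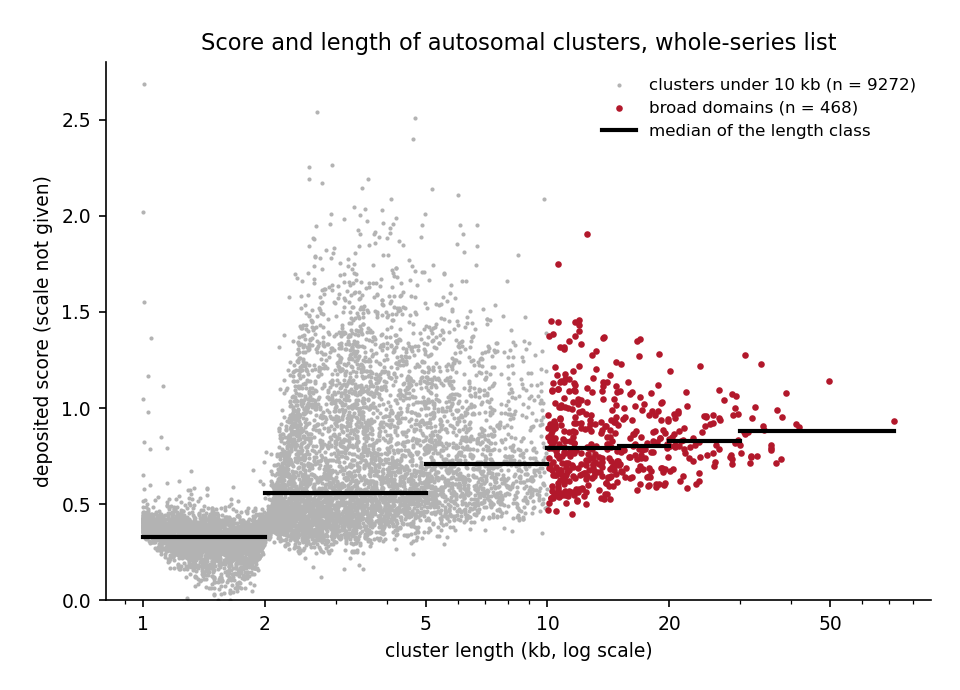
Deposited score (scale not given) against length (kb, log scale) of autosomal clusters under 10 kb (grey) and of broad domains (red) in the whole-series list, with the median of each length class as a black line. The median goes from 0.332 at 1 to 2 kb to 0.793 at 10 to 15 kb and lies at 0.880 at 30 kb or more. The highest score, 2.69, belongs to a cluster of 1 to 2 kb, and clusters of 2 to 5 kb reach 2.54.

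The 5 highest-scoring domains were short ones. The first, 2R 15712238 to 15724792 of 12.6 kb, scored 1.91 and ranked 36 among the autosomal clusters. It was a piece of 9.53 kb with a score of 2.15 and a piece of 1.37 kb with 0.577 in replicate 1, and a single piece of 11.3 kb with 2.04 in replicate 2. The second, 2R 5436222 to 5446828 of 10.6 kb, scored 1.75, and in both replicates it was a strong piece with scores of 1.93 and 2.07 followed by a weak one with 0.511 and 0.452. In the second domain the strong piece alone measured 7.71 kb and 7.17 kb, below 10 kb in both replicates. The other three, 3L 19395776 to 19407752, 3R 26388042 to 26398272 and 3R 16777982 to 16789648, scored 1.46, 1.45 and 1.45 and were 1 piece in each replicate.

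At the low end, 2L 19867278 to 19878800 had the lowest score, 0.447, and the lowest mean cover. Its 11.5 kb were covered to 29.7% by 2 pieces in replicate 1 and to 68.2% by 2 pieces in replicate 2. The next lowest scores were those of 3L 22042866 to 22053390 with 0.464, 2R 9159418 to 9169438 with 0.472, 2R 13179626 to 13192052 with 0.500 and 2R 10446354 to 10457456 with 0.506. Low score and low cover went together. The fourth of domains with the lowest mean cover, up to 84.4%, had a median score of 0.641, and the fourth with the highest, from 95.9%, had a median of 0.967. Spearman's rho between score and mean cover was 0.67 across the 468 domains, which share both libraries. Low mean cover also marked 2L 9140808 to 9152638, with a score of 0.516, and 3R 23672824 to 23683214, with 47.4% and 68.6% cover and a score of 0.541.

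Domains were spread over all 4 arms. The number was 119 on 2L, 106 on 2R, 101 on 3L and 142 on 3R, or 5.17, 5.01, 4.12 and 5.09 per Mb. The median score was nearly the same on each, from 0.798 on 2R to 0.809 on 2L. In the replicate lists, 3R had more clusters of 10 kb or more than the other arms, with 2.90 ± 0.101 per Mb (SD, n = 2). The value was 2.37 ± 0.399 on 2L, 2.22 ± 0.334 on 2R and 2.12 on 3L, where both replicates had 52. Thus 3R led in both replicates and 2L in the whole-series list, and the order of 2L, 2R and 3L differed between the lists. Long domains were also most frequent on 3R, the longest arm, with 31 of at least 20 kb and 13 of the 26 of at least 30 kb. Domains of at least 20 kb came to 1.11 per Mb on 3R, 0.946 on 2R, 0.896 on 3L and 0.782 on 2L. For comparison, the X had 57 clusters of 10 kb or more, 2.54 per Mb, with a longest of 23.0 kb. Their median score was 0.895, and that of shorter X clusters was 0.534. Chromosome 4 had none, its longest cluster being 8277 bp.

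Along the arms, no domain lay near the centromere-proximal ends of 2L, 2R and 3L. The first domain was 1.97 Mb from that end on 2L, 1.69 Mb on 2R and 1.71 Mb on 3L, but 0.485 Mb on 3R. Other clusters were present there, with 78 in the last 1969 kb of 2L, 53 in the first 1691 kb of 2R and 37 in the last 1710 kb of 3L. They covered 11.8%, 8.11% and 5.93% of these stretches. Clusters of any length were thus sparse there, and domains are 4.80% of clusters over all 4 arms. Each of these stretches was cut at its first domain, so the lack of domains was fixed by the choice. Nothing about length is read from it. Apart from the ends, 6 stretches between neighbouring domains exceeded 1 Mb. The longest, 3L 17694885 to 18922945 of 1228 kb, held 132 clusters, and these covered 27.1% of it. The next was 3R 12023011 to 13173193 of 1150 kb, with 96 clusters and 25.7% cover. These stretches were chosen for having no domain, and both held shorter clusters. Over the whole-series list, 36.4% of the 4 arms was covered.

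**Figure D5:**
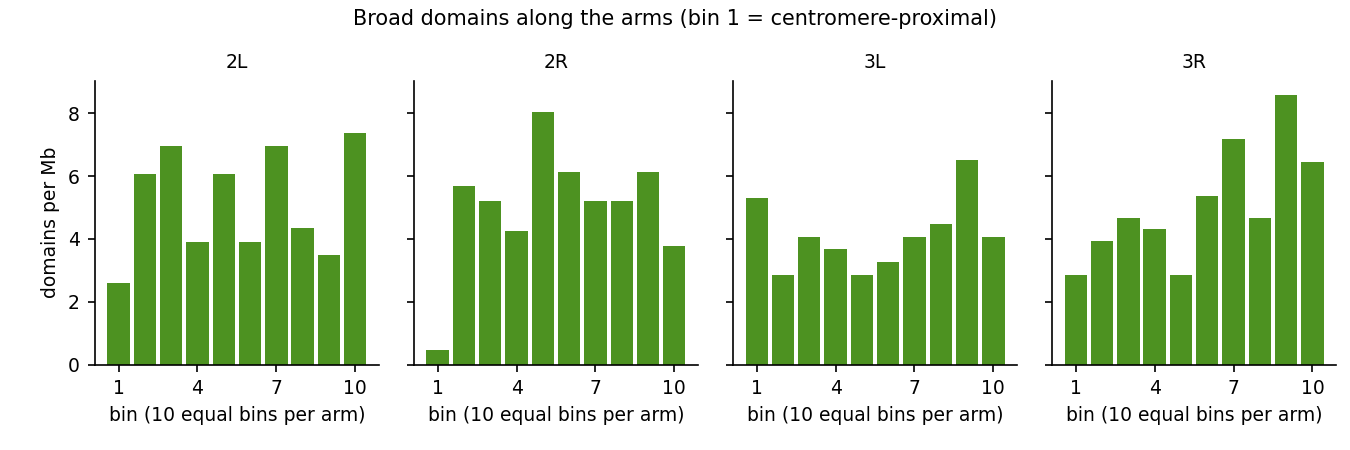
Broad domains per Mb in each of 10 equal bins of the arms 2L, 2R, 3L and 3R, with bin 1 at the centromere-proximal end. The lowest bar is bin 1 of 2R with 0.473 per Mb (1 domain) and the highest is bin 9 of 3R with 8.60 per Mb (24 domains).

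On 3L, the centromere-proximal of 10 equal bins of the arm was, taken whole, sparse in clusters but not in domains. It held 13 domains among 109 clusters, a share of 11.9%, against 2.82% to 6.72% in the other bins of that arm. On 2R the same bin held 1 domain among 101 clusters. The 13 domains on 3L lay in a strip that ended 1.71 Mb before the arm end. The rest of the bin, the last 1710 kb of the arm, held 37 of its clusters and no domain. The 1-Mb window 3L 22000001 to 23000000 held 14 domains that made up 28.3% of its sequence, the highest share of the 95 full windows. In the replicate lists, clusters of at least 10 kb made up 11.1% and 16.6% of this window. The next highest windows were 3R 23000001 to 24000000 with 20.7%, 2L 18000001 to 19000000 with 17.6%, 2R 17000001 to 18000000 with 17.5% and 3R 18000001 to 19000000 with 16.2%. The median window had 7.52%, and 3 windows, all at the centromere-proximal ends of 2L, 2R and 3L, had no domain. The 10 richest windows, picked by their share in domains, together held 23.2% of all domain bases. Windows with more sequence in domains also had more cover by clusters of all lengths, with a Spearman's rho of 0.72. That cover includes the domains.

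Domains often stood next to each other. The median distance to the next domain was 103 kb, with quartiles of 19.9 and 249 kb, and a neighbour within 20 kb was found for 202 domains (43.2%). These formed 63 pairs, 16 groups of 3 and 6 larger groups, and 266 domains stood alone. The largest group was 3L 22300714 to 22484012, where 7 domains filled 76.7% of 183 kb. Its members measured 11.2 to 35.6 kb. Their scores ran from 0.605 to 1.28, the highest belonging to 3L 22382778 to 22401668, which was also the only one in 1 piece in both replicates. The group of 5 was 2R 15420724 to 15519622, with 71.9% of 98.9 kb in domains and scores of 0.599 to 0.866.

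The 4 groups of 4 domains were more tightly packed. They filled 94.4% of 78.6 kb at 3R 17958976 to 18037586, 92.0% of 76.1 kb at 2L 20966024 to 21042098, 85.9% of 68.6 kb at 3L 6486962 to 6555540 and 79.9% of 81.1 kb at 3R 13734384 to 13815496. In the last of these, 3R 13767726 to 13792352 was 1 piece in each replicate, with a cover of 98.9% and 98.5%. Its neighbour 177 bp further on, 3R 13792530 to 13802752, had a cover of 62.2% in replicate 1 and of 92.0% in replicate 2. Adjoining domains could thus differ in how they held together. Over all arms, 67 pairs of neighbouring domains had no other cluster between them.

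Domains in groups had lower scores than those alone. The median score was 0.759 for the 202 domains with a neighbour within 20 kb and 0.858 for the 266 without, and the quartiles overlapped, with 0.646 to 0.883 and 0.714 to 1.01. Their medians of cover were also lower, with 88.0% against 91.3% in replicate 1 and 92.4% against 94.0% in replicate 2. Being in 1 piece in both replicates was less frequent, with 18.8% against 27.8%. The lengths were similar, with medians of 14300 and 13177 bp. The most solitary domains after the one on 2R were 3L 7139394 to 7150950, 584 kb from the nearest, 3L 1575940 to 1589692 at 552 kb, 3R 13173194 to 13192544 at 542 kb and 2R 3572588 to 3582980 at 492 kb. The first of these also stood far from any cluster, with the nearest 13.3 kb away.

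The sequence beside domains had a higher median cover than that beside shorter clusters. In the 20 kb on each side, the whole-series list covered a median of 48.7%, with quartiles of 35.8% and 62.4%. Around clusters under 10 kb the median was 37.0%, with quartiles of 25.1% and 49.6%, so that the ranges overlapped widely. These flanks include neighbouring domains, so a domain within 20 kb raises the cover by definition. The median was 62.2% for the 202 domains with a neighbour within 20 kb and 40.2% for the 266 without. The shorter clusters were not restricted to those without a domain nearby, so 40.2% and 37.0% come from unlike sets. Over all domains, the medians in the replicate lists were 34.1% against 24.1% in replicate 1 and 37.5% against 27.8% in replicate 2. The median distance to the nearest cluster was 622 bp for domains and 1249 bp for clusters under 10 kb. A cluster less than 500 bp away was found for 213 domains (45.5%) and for 29.5% of the shorter clusters, so the limits of many domains rested on breaks shorter than 500 bp.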

How the data were processed

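The authors deposited 3 lists of H3K9ac clusters with 1 score each, 1 for each of 2 ChIP replicates and 1 for the whole series. Reads were aligned with Bowtie 0.12.7, per the submitters' processing notes, to FlyBase release 5, per the file headers. The sources used here do not give the cluster caller, its thresholds, the scale of the score or the joining of the replicates. Read depth is unknown, which leaves the counting error without an interval. It is not in the labels if separate cages or cultures gave the replicates. The input libraries entered only as backgrounds. Samples were grouped by their titles.

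A piece was a replicate cluster sharing at least 1 bp with a domain, cover was the share of domain bases in pieces, and a gap lay between pieces. Groups of domains joined neighbours within 20 kb. Tested on simulated domains at known places, the functions returned the planted pieces, cover and gaps in 300 of 300. The planted pieces neither touched each other nor ran past their domain. On the real lists, bedtools 2.31.1 gave the same cover and pieces for all 468 domains in each replicate. Tables were handled with pandas 2.3.3 under Python 3.11.15, rank correlations computed with scipy 1.17.1 and plots drawn with matplotlib 3.10.9.

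The members and lists were chosen with earlier results of these data known. No test was made. Named were the 10 longest domains, the 5 highest and 5 lowest scores, the 5 lowest in mean cover, the 5 with most pieces, the 5 largest differences in cover, clusters beside the threshold, the largest groups, the 5 most solitary, the 5 richest windows and the 5 longest shared gaps; other domains were chosen after their values were seen. Alternatives were minimum lengths of 8 and 15 kb, joining of clusters less than 500 bp apart, a minimum piece or gap length and each replicate alone. Genes and sequence under the domains were not analysed here, since the annotation at hand is of release 6.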

Additional observations from a re-analysis of the deposited data

How the results depend on the processing

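The number of domains, 468, was 701 with a minimum of 8 kb, 184 with 15 kb and 632 after joining clusters less than 500 bp apart. Their share of the 4 arms, 7.82%, became 9.96%, 4.29% and 11.4%, in that order. With each replicate list alone, the number ranged from 221 to 248 and the share from 3.37% to 3.84%. The ratio of the highest to the lowest density among the arms was 1.26, with 1.27 at 8 kb, 1.45 at 15 kb and 1.40 to 1.43 with 1 replicate list. The median distance between neighbours, 103 kb, was 57.3 kb at 8 kb, 341 kb at 15 kb and 228 to 272 kb with 1 replicate list, as fewer domains stand farther apart. The share with a neighbour within 20 kb, 43.2%, was 51.5% at 8 kb, 20.7% at 15 kb, 46.4% after joining and 27.1% to 28.2% with 1 replicate list. The median score of domains exceeded that of shorter clusters by 0.364, and by 0.346 at 8 kb, 0.308 after joining and 0.296 to 0.315 with 1 replicate list, so the sign held in all alternatives run. The median cover, 91.8%, was 93.9% at 15 kb, 87.2% after joining and 90.3% to 93.2% with 1 replicate. The share in 1 piece, 36.3%, was 40.7% at 8 kb, 28.0% at 15 kb, 19.9% after joining the whole-series clusters and 60.4% after joining replicate clusters less than 500 bp apart, and 34.2% to 38.5% with 1 replicate. The median gap, 480 bp over both replicates, was 716.5 bp without gaps under 200 bp, and 435 to 527.5 bp with 1 replicate. Of the alternatives run, the minimum of 15 kb and the use of 1 replicate list changed the number and the share of the arms by the largest ratios. The read depth is unknown, so differences between the replicates cannot be set against it. No paired analysis was possible because the inputs enter only through the clusters and no test was made.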
